A study of Drosophila sechellia with 6 samples.

Results

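In flies fed noni, 6 secreted immune genes were listed at lower mRNA levels than in flies fed control food. These genes are the *Drosophila sechellia* orthologs of *Defensin* (*Def*, GM20557), *Drosomycin* (*Drs*, GM14569), *Metchnikowin* (*Mtk*, GM21609), *elevated during infection* (*edin*, GM25706), *IM18* (GM15526) and *GNBP-like3* (GM22021). They were taken by gene name from the deposited table of 17273 genes. The rule used no level, but the members were chosen with earlier results of these data known. Counts of members set against all genes below are therefore description and not a test. Adult females of strain 14021-0428.25, 0 to 3 days old, spent 24 h on food into which 1 g of rotten noni pulp had been mixed (the noni group) or on the same food without noni (the control group). Both groups were reared on cornmeal medium at 20 degrees with 16 h of light and 8 h of dark. Each diet had 3 libraries of 10 whole flies, so 1 strain and a mixture of all tissues stand behind every value. RNA with poly(A) was sequenced, and the authors' program Cuffdiff gave 1 FPKM value (the density of sequenced fragments along a transcript, corrected for library size) per gene and diet, pooled over the 3 libraries. No value of a single library was at hand, so the values below have no SD and no test, and they do not show by themselves whether a difference exceeds the spread between libraries. The columns of the authors' own comparison were not used. No count of any gene was at hand either, so no counting error is given.

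In *D. melanogaster*, microbes are sensed mainly by the Toll and Imd pathways, which release transcription factors of the NF-kappaB family in the fat body, blood cells and gut. These factors switch on genes for small secreted peptides that kill bacteria and fungi. Def acts chiefly on Gram-positive bacteria, Drs is a cysteine-rich antifungal peptide, and Mtk is a proline-rich peptide active against fungi and bacteria. The gene *edin* encodes a small secreted protein whose mRNA rises on infection through the factor Relish. IM18 was found as a peptide induced in the haemolymph by immune challenge, and GNBP-like3 resembles the glucan-binding end of the GNBP recognition proteins but lacks their larger domain. These roles are known from *D. melanogaster* and were not tested in *D. sechellia*.

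On noni, *Def* was listed at 1237 FPKM, against 3357 FPKM in control. The noni value was 36.9% of the control value. With 1 FPKM added to both values, as in all log2 changes below, the log2 change of noni over control was -1.44. *Def* lies on scaffold 1 of the build dsec_caf1 from 3554209 to 3554487, with positions counted from 1.

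*Drs* was listed at 2458 FPKM on noni and 4234 FPKM in control, so that 58.1% of the control level was found on noni. The log2 change of *Drs* was -0.78, and its locus is on scaffold 2 from 3360865 to 3361083. *Mtk*, on scaffold 1 from 8776085 to 8776243, had 4488 FPKM on noni and 6793 FPKM in control. Its noni level was 66.1% of control and its log2 change, -0.60, was the smallest of the 6. *Drs* and *Mtk*, which encode the antifungal peptides, were the pair that differed least between the diets.

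The level of *edin* was 90.2 FPKM on noni and 304 FPKM in control, a log2 change of -1.74, on scaffold 0 from 9540533 to 9540880. *IM18*, on scaffold 9 from 2769436 to 2769645, had 1057 FPKM on noni and 3549.7 FPKM in control, with a log2 change of -1.75. For *GNBP-like3*, on scaffold 1 from 13969490 to 13969948, the values were 158 FPKM on noni and 507 FPKM in control, with a log2 change of -1.68. These 3 genes were each at 29.7% to 31.1% of their control level on noni, although their control levels spanned a range from 304 to 3549.7 FPKM.

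**Figure D1:**
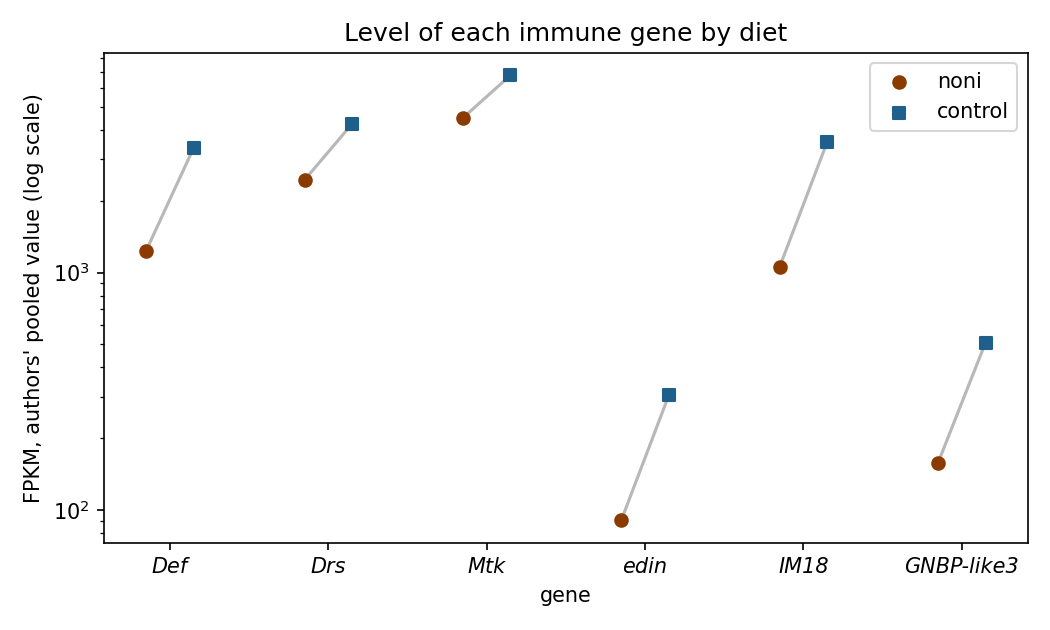
FPKM of each gene (vertical axis, log scale) on noni (circles) and control (squares), with 1 pooled value for each diet and no error bars because single libraries were not at hand. Every circle lies below its square, and the lines are steeper for *Def*, *edin*, *IM18* and *GNBP-like3* (log2 changes from -1.75 to -1.44) than for *Drs* (-0.78) and *Mtk* (-0.60).

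All 6 genes were lower on noni, with a median log2 change of -1.56, while 45.2% of all genes whose mean reached 1 FPKM were lower. At least 1 lower on the log2 scale, that is at or below 50% of control after the added FPKM, were 4 of the 6 genes. Over the 12044 genes whose mean reached 1 FPKM, all 6 included, 3.53% were at least 1 lower on noni and 1.91% at least 1 higher. The median log2 change of these 12044 genes was 0.04, with quartiles of -0.20 and 0.24. Changes below that of *IM18* were found for 1.55% of the genes, and changes below that of *Mtk* for 8.59%. *Drs* and *Mtk* did not reach a log2 change of 1, but both were more than 0.58 lower, as were 9.01% of all genes. Centred on the median of loci of at most 500 nt, *Mtk* was at -0.49 and no longer past 0.58. The same held when each diet was rescaled to the same total, with *Mtk* at -0.51 over all genes and at -0.52 without RNA genes.

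The order of the genes by FPKM, a value scaled for length, was almost the same on both diets. On noni it was *Mtk*, *Drs*, *Def*, *IM18*, *GNBP-like3* and *edin*, while in control *IM18* stood above *Def*. Which neighbours in this order differ beyond their spread cannot be said. The order, ranks and sums of FPKM rest on the annotated locus lengths, which may be coding lengths only. *Mtk*, with a locus of 159 nt, was the 85th most abundant gene of the table on noni and the 44th in control. *Def* was at rank 254 on noni and 140 in control, and *edin* at rank 2412 on noni and 922 in control. *Mtk* alone made up 47.3% of the summed FPKM of the 6 genes on noni and 36.2% in control. This sum was 9488 FPKM on noni and 18743 FPKM in control, so that the noni sum was 50.6% of the control sum. It was 0.469% of the FPKM of all genes on noni and 0.869% in control. Because whole flies were sequenced, fewer immune-responsive cells and less RNA per cell cannot be told apart.

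The 6 loci are short, from 159 nt for *Mtk* to 459 nt for *GNBP-like3*. Each of the 6 lengths is a multiple of 3, as are 80.1% of the loci of at most 500 nt that are not rRNA, snoRNA, snRNA or tRNA genes, so the annotated lengths may be coding lengths. Short loci differed between the diets more often than long ones. Of the 1786 genes with loci of at most 500 nt, 11.5% were at least 1 lower on noni and 6.16% at least 1 higher. The median log2 change of these short loci was -0.10, and 58.0% of them were lower on noni. Of the 10258 genes with longer loci, 2.14% were at least 1 lower. At a locus length of at most 300 nt, which takes in *Def*, *Drs*, *Mtk* and *IM18*, 17.3% of 723 genes were at least 1 lower. Among the short loci of at most 500 nt, 8.01% had a change below that of *Def* and 24.0% below that of *Mtk*. Of 1265 genes at least as abundant as *edin*, 3.95% were at least 1 lower on noni. Among the 459 of them with loci of at most 500 nt, 28 genes, 6.1%, were at least 1 lower, and 71.0% were lower by any amount. The part of locus length in the difference of the 6 genes was not tested.

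**Figure D2:**
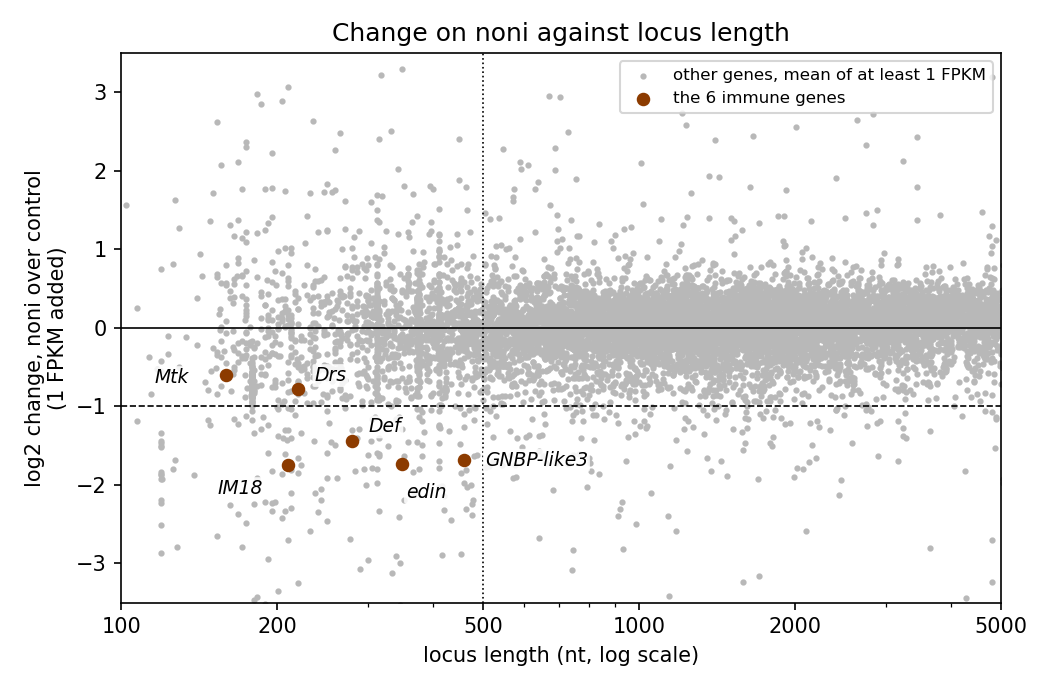
The log2 change of noni over control with 1 FPKM added (vertical axis) against locus length in nt (horizontal axis, log scale) for genes whose mean reached 1 FPKM. Of these, 9786 lie within the axes, which run from 100 to 5000 nt and from -3.5 to 3.5, and 2258 lie outside. The 6 immune genes (large points) all lie left of 500 nt (dotted line), and *Def*, *edin*, *IM18* and *GNBP-like3* lie below -1 (dashed line), in the part of the plot where the other genes also scatter most.

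The other antimicrobial peptide genes were set beside these members. Of 23 names on a list of such genes, 14 could be matched to 13 *D. sechellia* genes, and 4 of these are members. Names came from the ortholog columns of the study's supplementary tables, which favour genes that changed in one of its treatments, so the counts of matched genes carry little weight. Of the 9 genes that are not members, 7 were lower on noni and 2 higher, and 1, *Drsl2*, was at least 1 lower. Their median log2 change was -0.75, close to the value of *Drs*. Except for *AttA* (721 nt) and *AttC* (788 nt), their loci are at most 500 nt long. For all loci this short, 58.0% had a change below 0 and 11.5% were at least 1 lower. The shares were 71.0% and 6.1% for short loci at least as abundant as *edin*. Whether the 9 genes differ from short loci in general was not tested. *Drsl2* (GM14560), a relative of *Drs*, was also the lowest, with 3.54 FPKM on noni and 14.99 FPKM in control and a log2 change of -1.82. At this low level it was no longer among the genes at least 1 lower with a pseudocount of 10 FPKM, and it dropped out at a mean of at least 10 FPKM, so that the whole list had 2 such genes in place of 3. The highest was the cecropin gene *CecC*, with 320 FPKM on noni and 255 FPKM in control and a log2 change of 0.33. *CecC* shares its ortholog names with *CecA1* (-0.85), and reads of these similar genes may have been divided between them. The attacin genes *AttA* and *AttC*, whose products act on Gram-negative bacteria, had log2 changes of -0.74 and -0.75.

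The Drosomycin family lies in part within 100 kb on scaffold 2. *Drsl5* (GM14562), which is also listed under the name *Drsl2*, had 1165 FPKM on noni and 2046 FPKM in control. Its log2 change of -0.81 stood next to that of *Drs* at -0.78. Its locus ends 52165 nt before *Drs*, and that of GM14560 ends 54437 nt before it. The sequences are related, so the division of reads among the 3 genes is uncertain.

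Peptides found in the haemolymph after challenge, which include the Bomanins, short peptides induced by Toll signalling, formed the list to which *IM18* belongs. Of its 30 names, 10 were matched to 8 genes. All 8 were lower on noni, 6 of them by at least 1, with a median log2 change of -1.13. Their loci are short, from 188 to 434 nt, and for short loci at least as abundant as *edin* the shares given above were 71.0% lower and 6.1% at least 1 lower. The Bomanin gene *BomBc3* (GM26400) was the lowest, with 94.7 FPKM on noni and 522 FPKM in control and a log2 change of -2.45. GM21871, listed as *CG16836*, was the least different at -0.57. *IM18*, at -1.75, was the second lowest of the 8.

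Most matched genes of the pathways that control such peptides in *D. melanogaster* had log2 changes closer to 0 than those of the members. Apart from *GNBP-like3*, the matched Imd and Toll loci are longer than those of the members, from 546 to 5958 nt. Of all genes with loci over 500 nt, 2.14% were at least 1 lower. The part of locus length in this contrast was not tested. Of 30 Imd pathway names, 6 were matched. The NF-kappaB factor gene *Rel* had 41.8 FPKM on noni and 51.5 FPKM in control, a log2 change of -0.29. Recognition proteins of the PGRP family, most of which on this list break down bacterial peptidoglycan, had log2 changes from -0.34 for *PGRP-SC2* (GM21061) to -0.03 for *PGRP-SB1* (GM24370). The lowest of the list was *pirk* (GM15701), a feedback inhibitor of Imd signalling, with 19.4 FPKM on noni and 57.4 FPKM in control and a log2 change of -1.52. It was the 1 gene of the 6 that was at least 1 lower.

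Of 23 Toll pathway names, 8 were matched, among them *GNBP-like3*. Without it, 6 of the 7 genes were higher on noni and 1 lower, none by at least 1, with a median log2 change of 0.14. Of all genes with loci over 500 nt, 42.9% were lower on noni, and their upper quartile was 0.24. The count of higher Toll genes therefore carries little weight. The receptor gene *Tl* (GM10345) had 114 FPKM on noni and 85.2 FPKM in control, a log2 change of 0.42, the highest of the list. *spz* (GM10138), the gene of its ligand, had a log2 change of 0.14, and *dl* (GM17128), an NF-kappaB factor gene, of 0.22. The protease gene *grass* (GM10373), which acts ahead of the receptor, was lower at -0.60, with 14.8 FPKM on noni and 22.9 FPKM in control. At -1.68, *GNBP-like3* was the 1 matched gene of this list that was at least 1 lower.

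**Figure D3:**
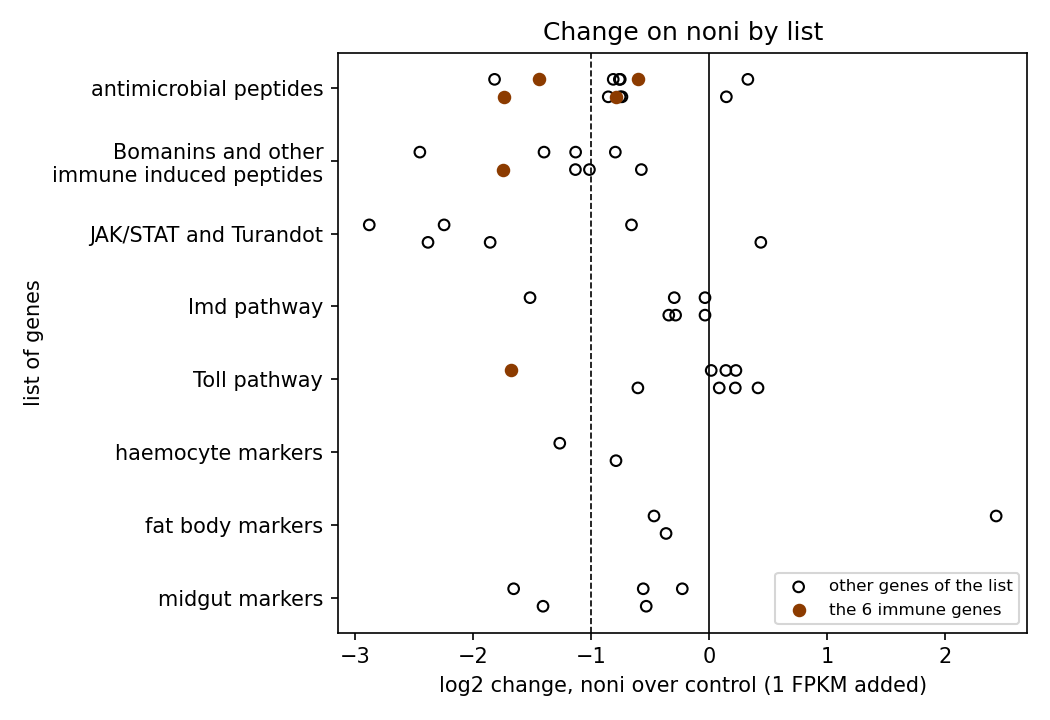
The log2 change of noni over control with 1 FPKM added (horizontal axis) for each matched gene with a mean of at least 1 FPKM, by list (vertical axis). Filled points are the 6 immune genes and open points the other genes of each list, offset in height so that they can be told apart. The peptide lists lie mostly left of 0, with medians of -0.76 for antimicrobial peptides and -1.13 for Bomanins and other induced peptides, while the Toll pathway genes other than *GNBP-like3* and *grass* lie right of 0.

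Markers of the tissues that make immune peptides were compared in the same way. The haemocyte (blood cell) markers *eater* (GM10134) and *PPO2* (GM20638) were the only ones matched of 7 names. *eater* had 0.913 FPKM on noni and 2.30 FPKM in control, and *PPO2* had 1.06 FPKM on noni and 3.95 FPKM in control, so both were lower on noni at low levels. Their summed level was 1.97 FPKM on noni and 6.25 FPKM in control. Of 5 fat body names, 3 were matched. *Fbp1* (GM24558, -0.36) and *Lsd-1* (GM26530, -0.47) were lower, while the storage protein gene *Lsp2* (GM25327) was higher, with 173 FPKM on noni and 31.1 FPKM in control. The sum of the 3 was 385 FPKM on noni and 320 FPKM in control. All 5 matched midgut genes, of 7 names, were lower, from *Mal-A1* at -1.66 to *Jon65Aiii* (GM14741) at -0.23, with sums of 3508 FPKM on noni and 4720 FPKM in control. Of these 5, 2 were at least 1 lower, *Mal-A1* and *alphaTry* (GM20441, -1.41). Over all genes 45.2% were lower and 3.53% at least 1 lower. The adult female markers, yolk protein and eggshell genes made in quantity by the fat body and ovary, were present as the label has it. All 6 matched of 7 names were higher on noni, 3 of them by at least 1, with a median log2 change of 1.04. Over all genes 1.91% were at least 1 higher, and the marker names too were matched through tables that favour changed genes. The sums of the 6 were 55175 FPKM on noni and 30541 FPKM in control. The yolk protein gene *Yp1* (GM11404) had 23781 FPKM on noni and 13415 FPKM in control. The eggshell genes *Cp36* (GM21626), *Cp16* (GM25088) and *Cp18* (GM25085) had log2 changes of 1.26, 2.27 and 2.94. The part of all these tissues in the levels of the immune genes was not tested. Of 4 male genes matched, 3 are listed at 0 in both diets, and the other, *Acp36DE*, is listed at 0 FPKM on noni and 0.0452 FPKM in control.

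The genes beside each member on its scaffold mostly had log2 changes closer to 0, as did most genes whose mean reached 1 FPKM. None of the 6 loci overlaps another listed locus. Of the 12 nearest genes, 1 on each side of a member, 9 had a mean of at least 1 FPKM. Their log2 changes ran from -0.19 for GM25707, on the right of *edin*, to 0.63 for GM15528, on the left of *IM18*. Over all genes whose mean reached 1 FPKM, 45.2% were lower on noni and 3.53% at least 1 lower. Of the 9 neighbours, 5 were lower and 4 higher, and 0 were at least 1 lower. Their loci, from 495 to 17329 nt, are all longer than those of the members, and the part of locus length in this contrast was not tested. *IM18* has the closest neighbours: GM15528 ends 254 nt before it, with 2.25 FPKM on noni and 1.10 FPKM in control, and GM15525 starts 109 nt after it and is listed at 0 FPKM in both diets. The nearest genes on both sides of *Def*, GM20558 and GM21178, had log2 changes of -0.18 and 0.35.

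Within 12 kb, or among the nearest genes where these lie farther off, 28 genes are listed, 22 of them with a mean of at least 1 FPKM. Among these 22, 1 was at least 1 lower on noni, against 3.53% of all genes. Changes below that of a member were found for 1.55% to 8.59% of all genes, so most genes anywhere lie above the members. Of the 6 members, 5 had a lower log2 change than every such gene beside them. The exception was *GNBP-like3*. GM19786, listed as *CG13427*, starts 11711 nt from it, with 0.577 FPKM on noni and 93.3 FPKM in control and a log2 change of -5.90. This gene was singled out after its values were seen.

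**Figure D4:**
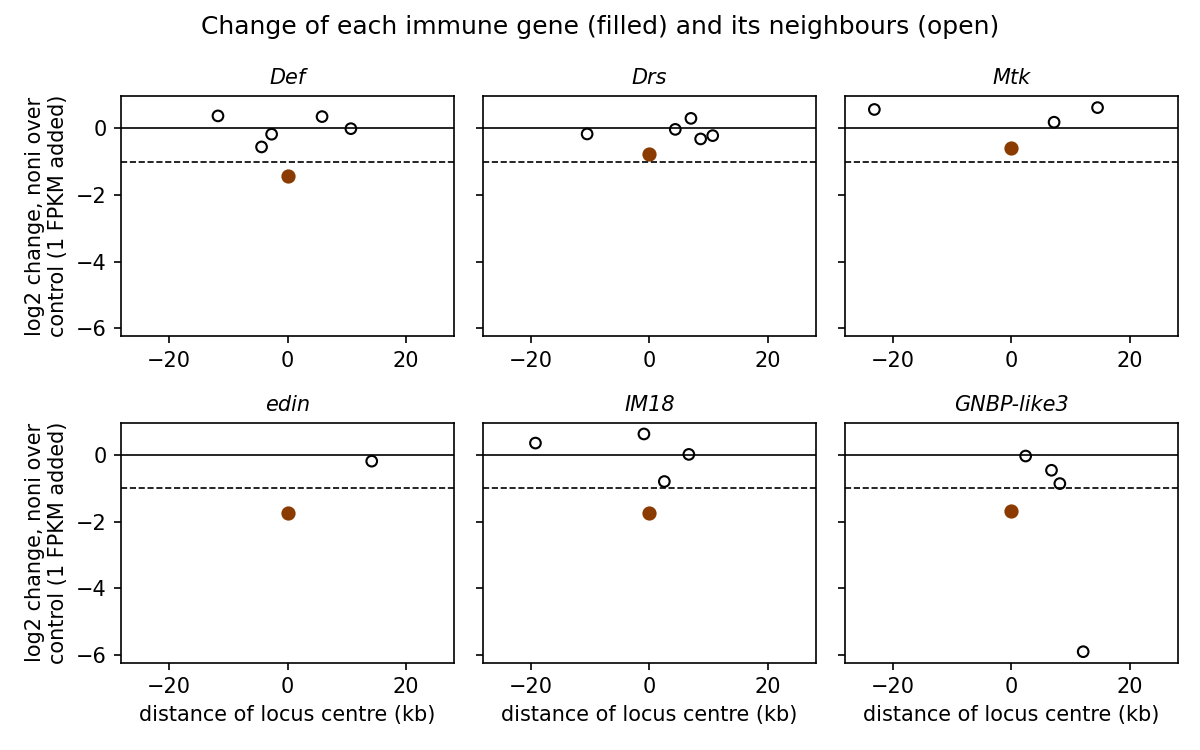
The log2 change of noni over control with 1 FPKM added (vertical axis) against the distance between locus centres in kb (horizontal axis) for each immune gene (filled) and the genes beside it with a mean of at least 1 FPKM (open). The dashed line marks -1. Except for *CG13427* near *GNBP-like3*, at -5.90, no open point lies below the filled point of its panel.

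Among 1259 genes at least as abundant as *edin*, the 5 with a log2 change nearest to the median of the members were found by rule, a likeness over 2 pooled values only. They were the snoRNA genes snoRNA:GM27505 (-1.51) and snoRNA:GM27651 (-1.67), GM22808 (*CG15043*, -1.61), the maltase gene *Mal-A1* (-1.66) and GM18260 (*CG34172*, -1.46). The snoRNA genes are listed in loci of 31909 and 26221 nt, far longer than those of the members. Whether their FPKM can be compared with that of the members was not tested. GM18260 had 1438 FPKM on noni and 3947 FPKM in control, levels like those of *Def*, and a locus of 254 nt. None of the 5 is on the immune lists.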

How the data were processed

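Diet labels put 3 libraries in the noni group and 3 in the control group. FastQC was used by the authors to check reads and Bowtie2 to map them, with dsec_caf1 as the reference (tool versions are not given in the sources used here). Cuffdiff took the Ensembl release 42 annotation and corrected for library size and sequence bias after geometric normalization. Each deposited FPKM value is pooled over the libraries of 1 diet. The table's other columns hold the authors' own comparison (log ratio, statistic, p, q and call) and were not used.

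From the FPKM values, the log2 change of noni over control was computed with a pseudocount of 1 FPKM. A threshold of 1 on the log2 scale was used in place of a test, because each diet has 1 pooled value. The calculation was tested on simulated data with 200 genes changed.

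The members, lists and threshold were chosen with earlier results of these data known. The genes named are the members, the extremes of each list with its receptors and NF-kappaB factors, the nearest genes on the scaffold, the *Drs* relatives within 100 kb and the 5 genes most like the members. *CecA1*, the attacin genes, *CG13427* and the tissue markers named were added after their values were seen. *spz*, *grass* and the Turandot genes other than *TotC* also fall outside this rule. Alternatives were other pseudocounts, minimum levels, scalings, centrings and sets of genes. Python 3.11.15, numpy 2.4.6, pandas 2.3.3 and matplotlib 3.10.9 were used.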

Additional observations from a re-analysis of the deposited data

How the results depend on the processing

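No paired analysis was possible because each diet has 1 pooled value, and for the same reason no library could be left out. With no spread between libraries, a log2 value was taken as moved when it differed by at least 0.1, and a count or share when it differed by more than 1.5 times. Of 151 values under alternatives, 130 stayed within these limits, 21 moved and 0 changed sign. Counts and shares cannot change sign. The 42 values for single members were all below 0, but a pseudocount cannot change a sign. The centrings and scalings shift all genes nearly alike and by little, so these tallies do not test the direction. Centred on the median of loci of at most 500 nt, the log2 changes were -1.33 for *Def*, -0.68 for *Drs*, -0.49 for *Mtk*, -1.63 for *edin*, -1.64 for *IM18* and -1.57 for *GNBP-like3*, with a median of -1.45. The value of *edin* was -1.64 when each diet was rescaled so that all genes sum to 1000000. Without *Def*, *Drs* or *Mtk* the median of the members was -1.68, and without *edin*, *IM18* or *GNBP-like3* it was -1.44. The share of all genes at least 1 lower, 3.53%, was 1.51% with a pseudocount of 10 FPKM, 11.5% for loci of at most 500 nt and 9.01% at a threshold of 0.58. Chosen after seeing the data, loci of at most 300 nt gave 17.3%, and short loci at least as abundant as *edin* gave 6.1%. The median of the JAK/STAT and Turandot list was -1.71 with a pseudocount of 10 FPKM and -2.24 at a mean of at least 10 FPKM, against -2.05. The cause of these shifts was not tested. The number of members at least 1 lower was 4 under every pseudocount, centring and scaling tried, and 6 at the threshold of 0.58, of which *Mtk* fell short when centred on short loci (-0.49) or rescaled to equal totals (-0.51 over all genes, -0.52 without RNA genes). Short loci, which hold all 6 members, limit what these pooled values show.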

Other observations

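Immune genes of other kinds were described by the same lists. Of 15 JAK/STAT and Turandot names, 6 were matched to 6 genes, and 4 of these were at least 1 lower on noni, with a median log2 change of -2.05. The 4 are Turandot genes, which encode secreted stress factors in *D. melanogaster*. *TotC* (GM23144) had 24.0 FPKM on noni and 183 FPKM in control, a log2 change of -2.88, and *TotX* (GM23148) had 8.85 FPKM on noni and 34.6 FPKM in control. GM23142 and GM23143 are both listed as *TotA* and *TotB*, so their reads may have been divided, and had log2 changes of -2.24 and -2.38. The kinase gene *hop* (GM11243) was the highest of the list, at 0.44. The Turandot loci named here are also short, from 453 to 476 nt. Over all genes 3.53% were at least 1 lower, and 11.5% of those with loci of at most 500 nt. As above, the names were matched through tables that favour changed genes, so this count carries little weight.

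Of 13 melanization and clotting names, 2 were matched, *PPO2* (-1.26) and the protease gene *Sp7* (GM10972, -0.12). Of 14 names for phagocytosis and thioester proteins, 5 were matched, and of the 4 genes whose mean reached 1 FPKM, 3 were higher on noni, the highest being *Tep3* at 0.15, and *eater* was lower at -0.79. For gut reactive oxygen, *Cat* (-0.19) and *Nox* (GM21688, 0.77) were matched of 5 names. None of these genes encodes an antimicrobial peptide.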
